A study of Mus musculus with 9 samples.

Results

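A set of 10 genes of MHC class I antigen presentation was followed through the differentiation of neural stem and progenitor cells (NSCs/NPCs) cultured from the dentate gyrus of adult C57BL6 mice. They were chosen by symbol: all 21 probes that the platform annotation assigns to H2-K1, H2-D1, H2-T23, B2m, Tap1, Tap2, Tapbp, Psmb8, Psmb9 or Nlrc5, out of 45281 probes and 19057 gene symbols on the Illumina MouseWG-6 array. Total RNA was measured on 9 arrays. The 3 stages had 3 arrays each: proliferating neurospheres (proliferation), cells kept in differentiation medium for 2 days (early differentiation) and cells kept in it for 7 days (late differentiation). All stages came from the same kind of primary culture, expanded with EGF and bFGF, and no gene was altered and no agent beyond the media was given. Before differentiation the spheres were dissociated and plated on coated dishes, so growth form and medium changed together with the stage. The labels call the arrays of a stage biological replicates without saying whether they came from separate mice, and p-values then measure the spread between these arrays. By the chip codes in the labels, early differentiation had a BeadChip to itself while the other stages shared 1, so stage and BeadChip cannot be told apart in any comparison with early differentiation.

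MHC class I molecules carry short peptides of cytosolic proteins to the cell surface, where CD8 T cells and natural killer cells read them. Proteasomes cut the proteins, and the immunoproteasome subunits Psmb8 and Psmb9 replace constitutive subunits in cells exposed to interferon gamma. The transporter formed by Tap1 and Tap2 pumps the peptides into the endoplasmic reticulum, tapasin (Tapbp) holds the transporter next to an empty class I molecule, and the heavy chain leaves for the surface together with beta-2-microglobulin (B2m). Nlrc5 is the transactivator that assembles on class I promoters. Neurons and their progenitors are known for low class I expression that interferon can raise, and class I molecules in neurons have also been studied for roles at synapses.

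The promoters of the 3 heavy chain genes, of B2m and of the Tap1 and Psmb9 pair are shown because each holds some of the sequence elements that class I genes are known to share and because 6 of these genes are compared below. The sequences are RefSeq's for GRCm38.p6, printed 5′ to 3′ on the strand of the gene, and of the 10 genes 8 had an entry. Capitals mark matches on either strand to 4 motifs: the core of the interferon response element (AANNGAAA), an NF-kappaB type element (GGGNNTTCC), the X2 core (TGACG) and the Y box (ATTGG). For H2-T23 the capitals mark the looser forms TGANG and NTTGG of the last pair, and the Y-like match overlaps an interferon response core. The H2-K1 stretch lies upstream of the start sites listed for its promoter and inside the longest span RefSeq gives the gene.
B2m, chr2:122147550-122147638, plus strand: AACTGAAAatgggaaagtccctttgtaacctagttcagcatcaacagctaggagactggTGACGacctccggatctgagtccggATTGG
H2-K1, chr17:34000359-34000458, minus strand: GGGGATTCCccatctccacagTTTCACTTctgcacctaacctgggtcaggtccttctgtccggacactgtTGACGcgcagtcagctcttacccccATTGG
H2-D1, chr17:35262923-35263022, plus strand: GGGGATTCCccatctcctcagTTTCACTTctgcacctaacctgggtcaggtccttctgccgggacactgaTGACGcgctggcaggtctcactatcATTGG
H2-T23, chr17:36032773-36032825, minus strand: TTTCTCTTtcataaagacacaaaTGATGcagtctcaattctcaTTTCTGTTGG
Tap1 (plus strand) and Psmb9, between their start sites, chr17:34187331-34187555: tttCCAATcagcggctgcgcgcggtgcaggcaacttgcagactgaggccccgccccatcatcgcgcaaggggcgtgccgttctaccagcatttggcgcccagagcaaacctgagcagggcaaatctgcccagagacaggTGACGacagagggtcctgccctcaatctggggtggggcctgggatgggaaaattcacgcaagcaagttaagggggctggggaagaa

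In B2m, H2-K1 and H2-D1 the X2 core stood 20 bases before the Y box, an arrangement that 30 of 32851 RefSeq mouse promoters (250 bases upstream of a start) held (0.0913%), and the looser form that H2-T23 shares with them was in 1.03%. The Tap1 and Psmb9 stretch held an X2 core and a Y box outside that arrangement, and no match to the interferon response or NF-kappaB type patterns. Single elements were common. An interferon response core was found in 21.3% of all promoters, an X2 core in 17.8%, a Y box in 33.8% and the NF-kappaB type element in 4.98%. Among the 8, only H2-K1 and H2-D1 matched the 9-letter NF-kappaB type pattern. The B2m stretch holds gggaaagtccc, which on the other strand has similar letters in a longer form that the pattern cannot match. B2m is thus not shown to lack such an element. The H2-K1 and H2-D1 stretches were identical at 89 of 100 bases, with 66 of 70 identical before the X2 core and 23 of 30 from the X2 core to the end of the Y box. These motifs were picked with the promoters in view, and a match describes letters and not binding.

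On the chromosome, 4 of the 10 genes are neighbours in the class II part of the MHC on chromosome 17 (GRCm38.p6), in the order Psmb9 (34182030 to 34187330), Tap1 (34187556 to 34197225), Psmb8 (34198195 to 34201454) and Tap2 (34204479 to 34216321). Tap1 and Psmb9 point away from each other, with 225 bases between their start sites. Tapbp (33919478 to 33929290), H2-K1 (33996012 to 34000619), H2-D1 (35263094 to 35267497) and H2-T23 (36029977 to 36032701) lie on the same chromosome. B2m is on chromosome 2 (122147687 to 122153082) and Nlrc5 on chromosome 8 (94434335 to 94527272).

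After 7 days of differentiation most class I genes were higher than in proliferation, and after 2 days few were. All 3 heavy chains, all 3 genes of peptide transport and loading and 1 of the 2 immunoproteasome subunits in the set rose by day 7. The rises ran from 1.55-fold (Tapbp) to 3.69-fold (Tap2), whereas B2m, Psmb8 and Nlrc5 were not called. A call required a fold of at least 1.5 and, from limma with Benjamini-Hochberg adjustment over 11009 genes, an adjusted p under 0.05. In late differentiation against proliferation 7 of the 10 genes rose and none fell, where 33.9% of all genes were called, 17.6% as higher and 16.2% as lower. At day 2 against proliferation 2 rose, H2-D1 and Tap2, and none fell (all genes 32% called, 16.8% higher and 15.2% lower). Between day 2 and day 7 another pair, H2-K1 and Tap2, was higher at day 7 and none was lower (all genes 3.92% called, 1.57% higher and 2.35% lower). At an unadjusted p under 0.05 and with no fold minimum, 1 of the 10 was lower in any comparison, B2m at day 2. Of all 11009 genes, 3110 were lower at that p at day 2. The median log2 change of the 10 genes was 0.76 at day 7, 0.28 at day 2 and 0.43 from day 2 to day 7, beside 0.01, 0.00 and 0.01 over all genes. The comparisons share arrays: proliferation is the baseline of the first pair, and day 7 minus day 2 is the difference of those changes. In RNA from whole cultures, a change in the share of expressing cells and a change in RNA per cell cannot be told apart.

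The replicates of late differentiation and proliferation did not overlap for 9 of the 10 genes, all but B2m, beside 61.6% of all genes. The 9 include Nlrc5, which was not well above background on any proliferation array and could be tested only because of the differentiation arrays on which it was higher, so the count is no support for it. For early differentiation against proliferation this held for 5 genes (61.3% of all genes), with H2-D1, Tap2, Tapbp and Nlrc5 above and B2m below proliferation. Nlrc5 was detected on 1 of 3 early arrays and on no proliferation array, so this count is no support for it either. For late against early differentiation it held for H2-K1, H2-T23, B2m, Tap1 and Tap2, each higher at day 7 (28.6% of all genes).

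**Figure D1:**
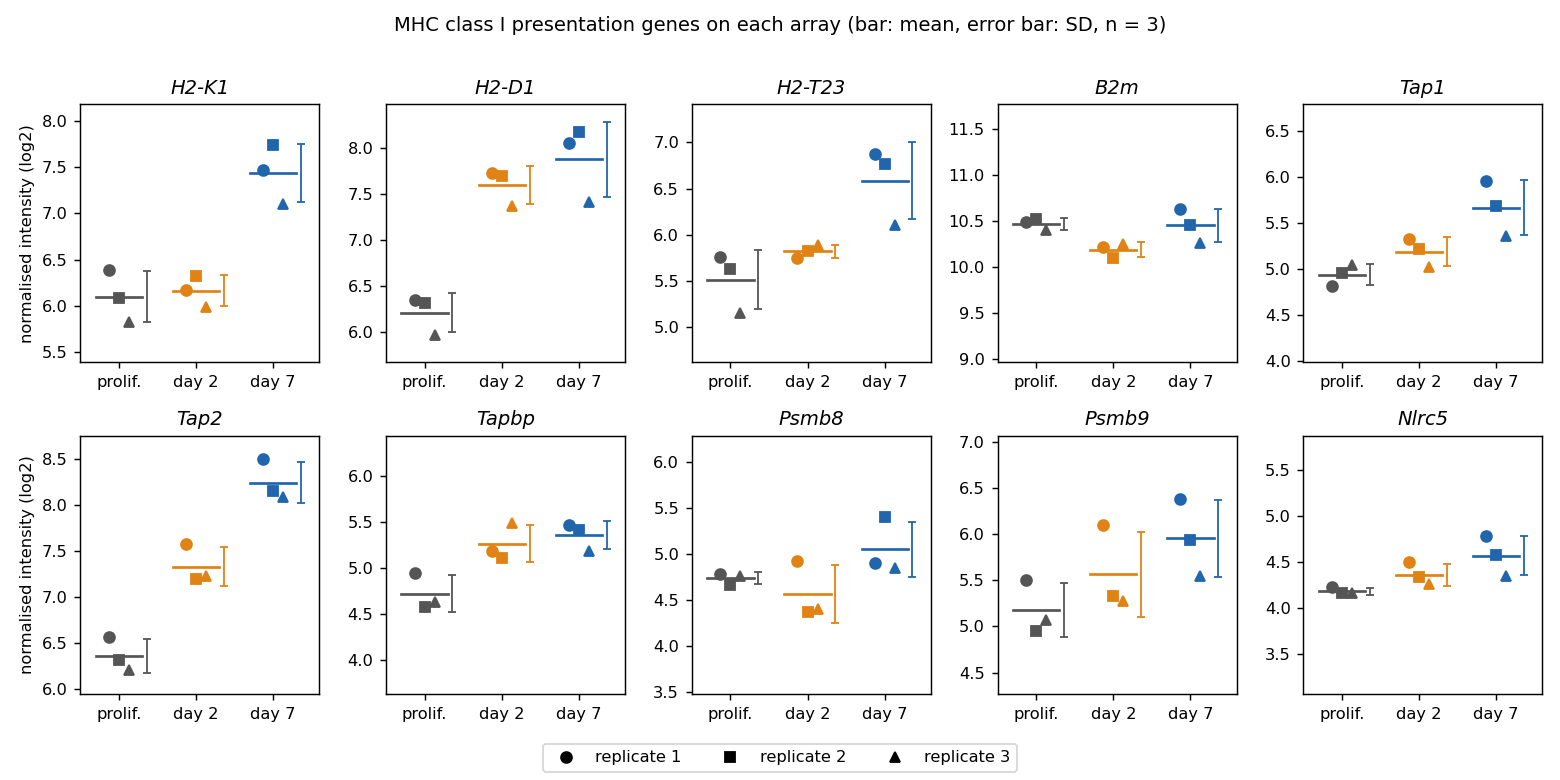
Normalised log2 intensity (vertical axis, own range for each gene and the same span of units) of the 10 genes on the 3 arrays of proliferation, day 2 and day 7, with the stage mean as a line and the SD as a bar beside it (n = 3). H2-K1 stayed near its proliferation level at day 2 and was higher at day 7, H2-D1 was already higher at day 2, Tap2 rose at both steps and B2m was at 10.45 at day 7 and 10.47 in proliferation (means).

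Among the heavy chains, H2-K1 and H2-D1 encode the classical class I molecules of this strain that present peptides to CD8 T cells. H2-K1 had log2 intensities of 6.38, 6.08 and 5.83 in proliferation, of 6.17, 6.32 and 5.99 at day 2 and of 7.47, 7.74 and 7.10 at day 7. The late arrays stood above the other 6, which overlapped. H2-K1 was 1.34 ± 0.18 higher on the log2 scale at day 7 than in proliferation (SE of the limma fit, n = 3 per stage, 2.53-fold, adjusted p = 0.00011), and 1.28 ± 0.18 higher than at day 2 (adjusted p = 0.00411). At day 2 the difference from proliferation was 0.06 (95% interval -0.34 to 0.46, adjusted p = 0.798). Before normalization its intensities were 140 to 172 in proliferation, 113 to 130 at day 2 and 187 to 246 at day 7, so that the difference at day 2 became -0.44 without normalization, where the median gene moved by -0.41.

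H2-D1 had log2 intensities of 6.35, 6.32 and 5.98 in proliferation, of 7.73, 7.70 and 7.37 at day 2 and of 8.05, 8.17 and 7.41 at day 7. All 6 differentiation arrays lay above the proliferation arrays, and day 2 and day 7 overlapped. It rose by 1.38 ± 0.20 by day 2 (adjusted p = 0.000167) and by 1.66 ± 0.20 by day 7 (3.17-fold, adjusted p = 4.05e-05). The difference between day 7 and day 2 was 0.28 (95% interval -0.16 to 0.71, adjusted p = 0.431). H2-D1 was thus called against proliferation at the time when H2-K1 was not, with promoters that share most of their letters. Whether the changes of H2-K1 and H2-D1 differ from each other was not tested, and because mouse class I heavy chain genes share long near-identical stretches, the signal of each heavy chain probe may hold RNA of more than 1 gene.

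H2-T23 encodes the heavy chain of Qa-1, a nonclassical class I molecule that presents leader peptides of other class I chains to natural killer cell receptors. It had log2 intensities of 5.76, 5.63 and 5.15 in proliferation, of 5.74, 5.83 and 5.89 at day 2 and of 6.88, 6.77 and 6.11 at day 7. Every late array was above all other arrays, and early differentiation overlapped proliferation. It rose by 1.07 ± 0.21 by day 7 (2.11-fold, adjusted p = 0.00121), and the change at day 2 was 0.31 ± 0.21 (adjusted p = 0.238). Between day 2 and day 7 it differed by 0.77 ± 0.21, with an adjusted p of 0.0516 in the limma fit that missed the threshold. Same-numbered arrays gave 1.14, 0.94 and 0.22 for that step, and with replicate number as a block the adjusted p was 0.0178.

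B2m, the light chain shared by all class I molecules, had log2 intensities of 10.487, 10.519 and 10.400 in proliferation, of 10.221, 10.097 and 10.251 at day 2 and of 10.632, 10.457 and 10.266 at day 7. Early differentiation was below both other stages, and late differentiation overlapped proliferation. The change at day 7 was -0.02 ± 0.11 (95% interval -0.26 to 0.23, adjusted p = 0.913), that at day 2 was -0.28 ± 0.11 (adjusted p = 0.0555) and that from day 2 to day 7 was 0.26 ± 0.11 (adjusted p = 0.181). Its intensities before normalization were 1857 to 1984 in proliferation, 930 to 1095 at day 2 and 1161 to 1543 at day 7. Without normalization the change at day 2 was -0.995 and passed the test (adjusted p = 4.53e-05). Over 24 alternative ways of processing, the change of B2m at day 7 ran from -0.56 to 0.12, so its level there depends on the processing too. None of these was called, although the lowest limma adjusted p among them was 0.00271, with the change under the fold minimum.

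The peptide transporter genes both rose by day 7. Tap2 had log2 intensities of 6.57, 6.31 and 6.21 in proliferation, of 7.58, 7.20 and 7.23 at day 2 and of 8.50, 8.15 and 8.09 at day 7. The stages did not overlap, and Tap2 was the gene of the 10 that was called in all 3 comparisons. It rose by 0.97 ± 0.15 by day 2 (1.96-fold, adjusted p = 0.000323), by 0.91 ± 0.15 from day 2 to day 7 (adjusted p = 0.00788) and by 1.88 ± 0.15 in all (3.69-fold, adjusted p = 2.52e-06). The call at day 2 was lost without normalization (0.39, adjusted p = 0.0842).

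Tap1, the other chain of the transporter, had log2 intensities of 4.81, 4.95 and 5.04 in proliferation, of 5.33, 5.22 and 5.02 at day 2 and of 5.96, 5.68 and 5.36 at day 7. Late arrays were above all others, and early differentiation overlapped proliferation. Tap1 rose by 0.73 ± 0.15 by day 7 (1.66-fold, adjusted p = 0.00195), while the change at day 2 was 0.25 ± 0.15 (adjusted p = 0.189) and that from day 2 to day 7 was 0.48 ± 0.15 (adjusted p = 0.0846). Tapbp had log2 intensities of 4.95, 4.57 and 4.63 in proliferation, of 5.18, 5.11 and 5.49 at day 2 and of 5.46, 5.41 and 5.18 at day 7. Both differentiation stages were above proliferation and overlapped each other. Tapbp rose by 0.64 ± 0.14 by day 7 (1.55-fold, adjusted p = 0.00289). At day 2 its change of 0.55 ± 0.14 had an adjusted p of 0.00755 but was 1.46-fold, under the fold minimum.

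Of the immunoproteasome subunits, Psmb9 had log2 intensities of 5.51, 4.95 and 5.07 in proliferation, of 6.10, 5.33 and 5.28 at day 2 and of 6.39, 5.94 and 5.55 at day 7. The lowest late array lay just above the highest proliferation array, and early differentiation overlapped both. Psmb9 rose by 0.78 ± 0.26 by day 7 (1.72-fold, adjusted p = 0.0244), the highest adjusted p of the 7 calls, and the change at day 2 was 0.39 ± 0.26 (adjusted p = 0.229). Psmb8 had log2 intensities of 4.78, 4.67 and 4.77 in proliferation, of 4.93, 4.37 and 4.40 at day 2 and of 4.90, 5.40 and 4.85 at day 7. It was detected on 1 of 3 early arrays and on all others. The change of Psmb8 was 0.31 ± 0.18 at day 7 (adjusted p = 0.164) and -0.17 ± 0.18 at day 2 (adjusted p = 0.437), so of the neighbours Psmb9, Tap1, Psmb8 and Tap2 it was the one not called at any step.

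Nlrc5, the transactivator, was not well above background on any proliferation array, was detected on 1 of 3 early and 2 of 3 late arrays, and passed the filter on dim probes through those arrays alone. Its log2 intensities were 4.22, 4.16 and 4.16 in proliferation, 4.49, 4.33 and 4.26 at day 2 and 4.77, 4.57 and 4.35 at day 7. Both differentiation stages lay above proliferation, and they overlapped each other. It was at least 1.08-fold higher at day 7 than in proliferation, with its proliferation arrays set at the lowest signal of a detected probe. The fitted change was 0.39 ± 0.12 (adjusted p = 0.0187), under the fold minimum.

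**Figure D2:**
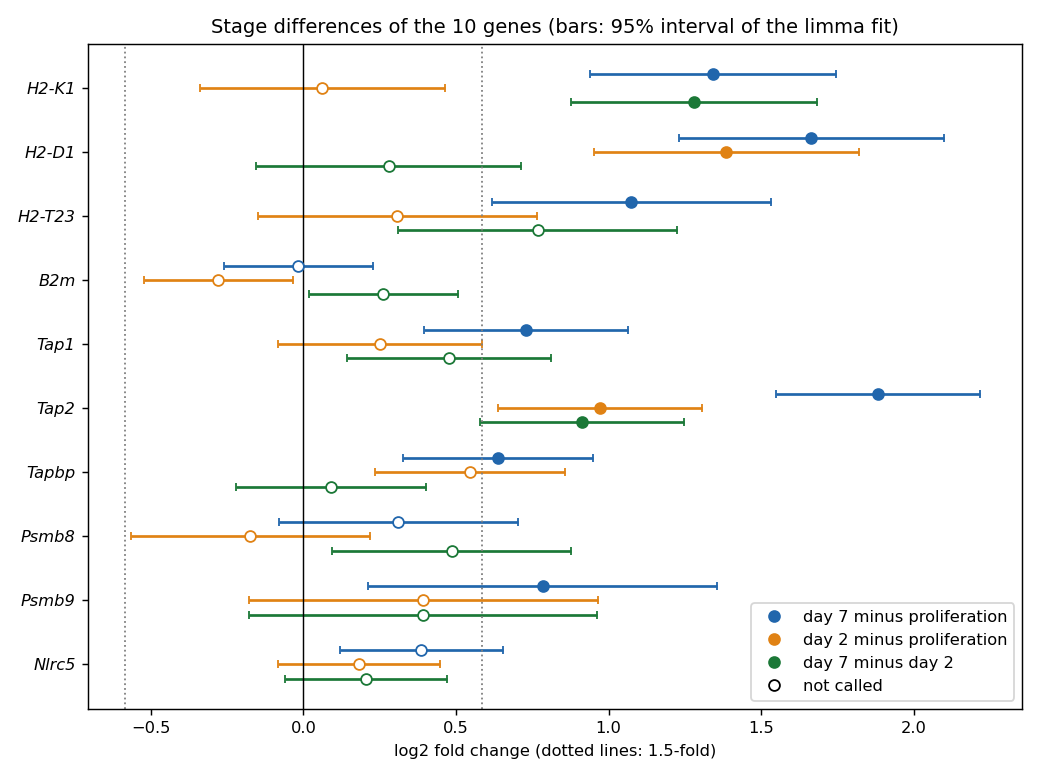
Log2 fold change (horizontal axis) of each gene for day 7 minus proliferation, day 2 minus proliferation and day 7 minus day 2, with the 95% interval of the limma fit. Filled points passed the test and the 1.5-fold minimum that the dotted lines mark: 7 genes at day 7, H2-D1 and Tap2 at day 2, and H2-K1 and Tap2 between the days.

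At day 7, the calls that rested on single arrays were those of Tap1, Tapbp and Psmb9. Without late replicate 1 their changes at day 7 were 0.58 (adjusted p = 0.00731), 0.58 (adjusted p = 0.0134) and 0.57 (adjusted p = 0.0969), each under the fold minimum, which left 4 genes called. Tapbp (0.56) also lost its call without proliferation replicate 2, and Psmb9 lost it without proliferation replicate 2 (adjusted p = 0.0867) or 3 (adjusted p = 0.0669). Tapbp was called at day 2 without proliferation replicate 1 (0.66) or early replicate 2 (0.62). Between day 2 and day 7, leaving out late replicate 3 added H2-T23 (1.01, adjusted p = 0.0118) and Tap1 (0.63, adjusted p = 0.0316), which made 4 genes called, and leaving out proliferation replicate 3 added H2-T23 (adjusted p = 0.0317). The calls of H2-K1, H2-D1, H2-T23 and Tap2 at day 7, of H2-D1 and Tap2 at day 2 and of H2-K1 and Tap2 between the days held whichever single array was left out.

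The probes of H2-T23 all rose by day 7 and those of Psmb8 were not called, whereas the probes of H2-D1, B2m and Tapbp differed among themselves. Of the 21 probes 17 were kept for being detected (detection p-value under 0.05) on 3 arrays or more, and each gene had at least 1. Of the 17, 11 were higher at day 7 than in proliferation (14.9% of all kept probes), 3 at day 2 (14.4%) and 3 at day 7 against day 2 (1.46%), and none was lower. Another probe of H2-D1 rose by 1.73 ± 0.21 at day 7 and 1.27 ± 0.21 at day 2, and the other pair of H2-T23 probes rose by 0.86 ± 0.20 and 0.66 ± 0.14 at day 7. A further H2-D1 probe, detected on 3 of 9 arrays, gave 0.24 and 0.34 and was not called. The other B2m probe gave 0.25 ± 0.11 at day 7 (adjusted p = 0.0837) and 0.01 ± 0.11 at day 2, both higher than the values of the probe above. The other Tapbp probe rose by 0.59 ± 0.15 at day 7 but gave 0.01 ± 0.15 at day 2, and was called higher at day 7 than at day 2 (0.59 ± 0.15, adjusted p = 0.0456), so the probes place the rise of Tapbp in different intervals. The other Psmb8 probe gave 0.15 ± 0.15 at day 7. The 4 probes not kept, of H2-K1 (2), H2-D1 and B2m, were detected on at most 2 of 9 arrays.

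**Figure D3:**
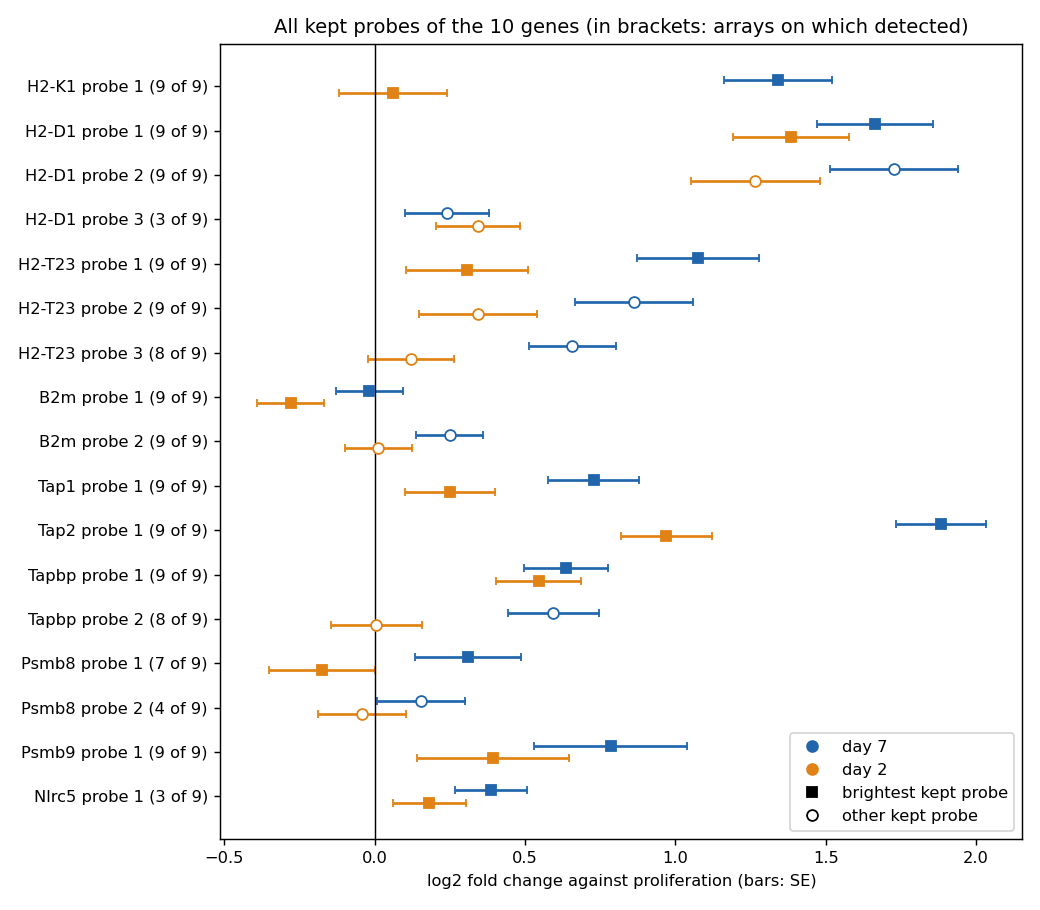
Log2 fold change against proliferation (horizontal axis, bars are the SE of the limma fit) at day 7 and day 2 for the 17 kept probes, with the number of arrays on which each was detected. Squares are the probes that stand for a gene and circles the other kept probes; the probes of H2-D1 detected on 9 arrays lie together, while those of Tapbp part at day 2.

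Within late differentiation, the 10 genes were low on the same array. Late replicate 3 was the lowest late array for 10 of the 10 genes (for 35.1% of all genes), and late replicate 1 was the highest for 7 (27.7% of all genes). Proliferation replicate 3 was the lowest of its stage for 6 genes (37.1% of all genes) and early replicate 3 for 5 (35.5% of all genes). The mean standardised level of the 10 genes was 1.39, 1.16 and 0.21 on the late arrays, 0.16, -0.39 and -0.36 on the early arrays and -0.45, -0.79 and -0.94 in proliferation. Across the 9 arrays, which share the 3 stages, the correlation of a gene with the mean of the other 9 was highest, among the genes detected in every stage, for H2-T23 (0.94), Tap1 (0.91) and Tap2 (0.91) and lowest for Psmb8 (0.58) and B2m (0.22). Nlrc5 gave 0.94 from a probe that was detected on 3 of 9 arrays. Outside the 10, the genes whose levels followed the mean standardised level of the 10 most closely were Nfkbia, the inhibitor of NF-kappaB (Pearson r = 0.97 over 9 arrays), the mitochondrial creatine kinase gene Ckmt1 (0.97), the cyclin-dependent kinase inhibitor gene Cdkn2b (0.96), Dcx, a microtubule protein of young neurons that was not detected on any proliferation array (0.96), and the interferon-induced membrane protein gene Ifitm3 (0.96). They were picked for the highest r among all genes tested, so the size of r is no support for a link. Dcx, and Nlrc5 within the mean, passed the filter through the differentiation arrays alone.

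In the rest of the class I pathway single genes were called in both directions. Of the other class I and class I-like chains, 10 of 21 on the array were tested, and by day 7 2 rose and 1 fell (at day 2, 2 rose and none fell). These are 30% called at day 7 and 20% at day 2, beside 33.9% and 32% of all genes. Fcgrt, the neonatal Fc receptor chain that also pairs with B2m, rose by 1.37 ± 0.15 at day 7 and 1.33 ± 0.15 at day 2. H2-Q5 rose by 0.73 ± 0.21 at day 7, and Cd1d1, which presents lipids, fell by 1.20 ± 0.13 at day 7. H2-M2, not detected on any proliferation array, was called at day 2 and was at least 1.36-fold higher. It passed the filter through the differentiation arrays alone, so it is no support for the count or share at day 2. Of 6 loading chaperones and trimming genes tested, 50% were called at day 7 and 33.3% at day 2, beside 33.9% and 32% of all genes. Tapbpl, a relative of tapasin that edits peptides, rose by 0.83 ± 0.10 at day 7. The chaperone calreticulin (Calr, fell by 1.0 ± 0.15) and the glucosidase subunit Ganab (fell by 0.66 ± 0.11) were lower at day 7, and Calr (fell by 1.11 ± 0.15) and the disulfide isomerase Pdia3 (fell by 0.60 ± 0.18) at day 2.

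No constitutive subunit of the proteasome rose. None of 11 constitutive 20S subunits tested was called by limma at day 7 (all genes 33.9%), when their log2 changes ran from -0.42 to 0.15 (median -0.23). At an unadjusted p under 0.05, 5 were lower at day 7 and 8 at day 2, beside 3188 and 3110 of all 11009 genes. At day 2 Psma7 (fell by 0.64 ± 0.11) and Psmb5 (fell by 0.81 ± 0.15) were called lower, which is 18.2% of the 11 beside 15.2% of all genes. Psmb5 is the subunit that Psmb8 replaces. Of 4 other inducible parts none was called by limma at day 7, with 1 higher and 1 lower at an unadjusted p under 0.05. The lower was Psmb10, the third immunoproteasome subunit, which changed by -0.58 ± 0.14 (adjusted p = 0.00527), just under the fold minimum. At day 2 Psmb10 fell by 0.95 ± 0.14 and was the 1 called of the 4 (25%, all genes 32%).

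Irf1 and part of the interferon genes were higher at both times. Irf1, the transcription factor that acts on class I promoters after interferon gamma, was the 1 gene called among 10 tested promoter factors, with 0.81 ± 0.12 at day 7 and 0.59 ± 0.12 at day 2. That is 10% called at each time, beside 33.9% (day 7) and 32% (day 2) of all genes. At an unadjusted p under 0.05, 4 promoter factors were higher and 2 lower at day 7, and 4 higher and 3 lower at day 2. Of all 11009 genes, 3339 were higher and 3188 lower at that p at day 7, and 3214 and 3110 at day 2. Rela changed by 0.58 ± 0.09 at day 7 (limma adjusted p = 0.000351), just under the fold minimum. Of 10 interferon receptor and signalling genes 5 rose and none fell at each time, where 17.6% (day 7) and 16.8% (day 2) of all genes rose. At an unadjusted p under 0.05 none of the 10 was lower, and 6 at day 7 and 5 at day 2 were higher, beside 3339 and 3214 of 11009 genes. The receptor chains Ifngr2 (1.77 ± 0.21 at day 7 and 1.88 ± 0.21 at day 2) and Ifngr1 (1.01 ± 0.13 and 0.95 ± 0.13) and the feedback inhibitor Socs3 (1.5 ± 0.34 and 0.90 ± 0.34) were among them, and the kinase Jak1 was lower at day 7 than at day 2 (fell by 0.80 ± 0.20). Of 15 interferon-stimulated genes outside the pathway 8 rose (53.3%, against the same shares of all genes) and none fell at each time (1 was lower at day 2 at an unadjusted p under 0.05), among them Ifit3 (4.37 ± 0.31 at day 7 and 3.29 ± 0.31 at day 2), the guanylate-binding protein gene Gbp2 (3.66 ± 0.24 and 3.32 ± 0.24) and the GTPase gene Igtp (1.91 ± 0.12 and 1.15 ± 0.12). Of these 15, Igtp was the 1 called between day 2 and day 7 (0.76 ± 0.12, adjusted p = 0.00619). The median change of the 15 genes was 0.74 at day 7 and 0.69 at day 2, that of the signalling genes 0.56 and 0.52, and that of the 10 class I genes 0.76 and 0.28. The 15 genes are those tested of 23 on the array. Their day 2 median is the value of Usp18, 1 of the 8 called at that time. Usp18 was detected on no proliferation array and passed the filter through the differentiation arrays alone, so it is no support for that count or median.

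**Figure D4:**
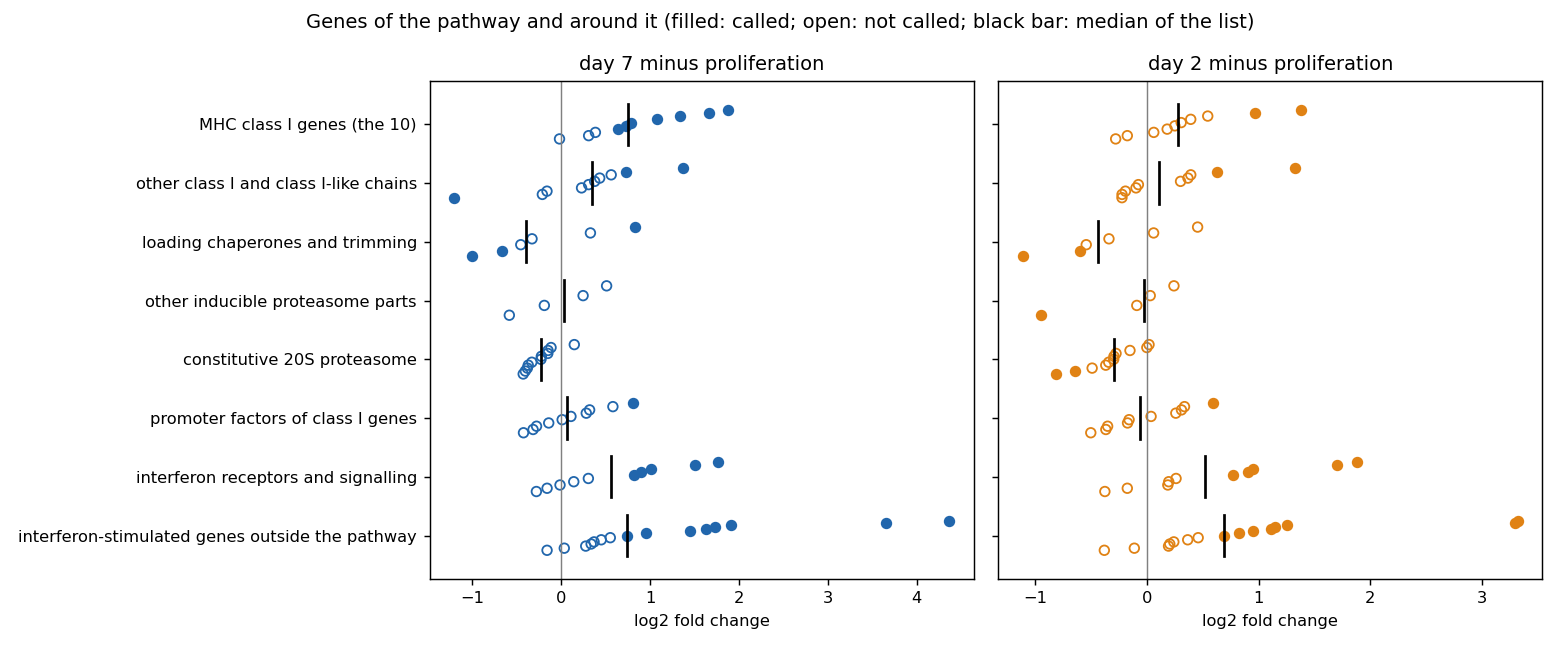
Log2 fold change (horizontal axis) at day 7 (left) and day 2 (right) against proliferation of the tested genes of each list, filled where called and open where not, with the list median as a black bar. The medians of the interferon lists lie near 0.5 to 0.7 at both times, whereas that of the 10 class I genes is 0.76 at day 7 and 0.28 at day 2, and the constitutive proteasome lies mostly below 0.

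Markers of cells outside the neural lineage were mostly not detected on 3 arrays or more, the limit used for all counts of detected markers. Of 14 microglia and macrophage markers on the array, 1 (Csf1r) was detected and 10 were detected on no array, among them Cx3cr1, Itgam, Ptprc, Tyrobp and C1qa. The summed background-corrected signal of that list was 40.0 to 44.3 in proliferation, 36.7 to 57.8 at day 2 and 37.2 to 48.4 at day 7. Class II genes gave 2 of 9 detected, with H2-Aa, H2-Eb1, Cd74 and Ciita detected on no array, lymphocyte markers 0 of 7 and endothelial markers 3 of 9. Of 8 fibroblast and mural markers, Acta2 was the 1 detected. It rose by 2.21 ± 0.36 at day 7 and 2.72 ± 0.36 at day 2, whereas Col1a1, Col1a2, Col3a1, Lum, Pdgfrb and Rgs5 were detected on no array, and its part in the class I result was not tested. The labelled cell type had its markers: 8 of 9 neural stem and progenitor genes were detected. Of 7 astrocyte genes 6 were detected, and 4 of the 6 rose at day 7 and 3 at day 2 (17.6% and 16.8% of all genes). Their changes at day 7 ran from -0.32 to 4.38. The stem list was split: at day 7, 4 of the 8 rose and 2 fell (17.6% and 16.2% of all genes), with a median change of 0.68. The largest rise was 2.42. Sox9 was among the risers (1.76 ± 0.10), and Hes1 (fell by 1.87 ± 0.12) and Fabp7 (fell by 1.73 ± 0.13) were lower. The summed stem signal was 11238 to 15593 in proliferation, 23900 to 24943 at day 2 and 24323 to 25037 at day 7. The astrocyte gene Gfap rose by 4.38 ± 0.36 at day 7 and 5.61 ± 0.36 at day 2, and the summed astrocyte signal was 3890 to 4546 in proliferation, 12931 to 15212 at day 2 and 11855 to 13955 at day 7, and its part in the class I result was not tested either. Of 6 oligodendrocyte lineage markers 4 were detected, and their summed signal was 8644 to 11034 in proliferation, 4777 to 5706 at day 2 and 2176 to 3583 at day 7, without overlap between stages. Olig1 (fell by 1.85 ± 0.18 at day 7) was the brightest of them and Pdgfra rose (0.73 ± 0.20). Of 6 neuron markers 4 were detected, with a summed signal of 1865 to 2450 in proliferation, 2173 to 2473 at day 2 and 1862 to 2140 at day 7. The part of these lists in the class I result was not tested. Between 18310 and 19919 probes were detected on each array, and mean intensities before normalization ran from 157 to 228, highest in proliferation. With 3 arrays per stage, precision is limited by their number.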

How the data were processed

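The authors exported mean bead intensities and detection p-values from GenomeStudio. The deposited intensities still held the background and were not normalised, although the methods describe an export after subtraction, and the deposited value table (intensity with background subtracted, scaled per array) served as an alternative. Intensities were corrected with limma 3.58.1 (R 4.3.3; normal-exponential model, offset 16), quantile normalised and taken as log2. Kept were 20935 probes detected (p-value under 0.05) on 3 arrays or more, 17481 with 1 symbol, and the brightest stood for each of 11009 genes. Because of the offset, changes of dim probes are understated. All 9 arrays entered a model of stage means (lmFit, eBayes).

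Deviations of same-numbered arrays correlated at 0.204 to 0.308 between early differentiation and proliferation and at 0.172 to 0.386 between late and early differentiation, which meets the rule for pairing (over 0.1), but at 0.0642 to 0.142 between late differentiation and proliferation. Alternatives covered normalization, background, filter, probe choice, thresholds, replicate block, array weights and left-out arrays. Genes of the other lists were named if called, at most 3 per direction, by size, and 5 further genes by likeness. The genes and lists were chosen with earlier results of these data known. The fit was tested on simulated data.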

Additional observations from a re-analysis of the deposited data

Results flagged for a closer look

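The change against proliferation differed between day 7 and day 2 for H2-K1, by 1.28 ± 0.18 on the log2 scale (SE, n = 3 per stage, limma adjusted p = 0.00411), and for Tap2, by 0.91 ± 0.15 (adjusted p = 0.00788), which is what brought them here. The difference of the changes is the same contrast as day 7 minus day 2, and in each same-numbered pair of arrays both genes were higher at day 7. The day 2 stage was the only 1 on its BeadChip, so stage and BeadChip cannot be told apart in it.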

How the results depend on the processing

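Of 717 values of the 10 genes under 24 alternatives, 675 kept their direction and side of the threshold, 15 lost a call, 18 gained one and 9 changed sign, all of these last from differences that were not called. The number of genes called at day 7 against proliferation was 4 without normalization and 4 with an offset of 50, in place of 7, with Tap1, Tapbp and Psmb9 lost in each. At day 2 it was 4 in place of 2 with background subtracted and a common 75th percentile, where Tapbp (1.23) and Nlrc5 were added. Nlrc5 was called at day 7 as well under that setting, but its proliferation arrays were all at background, so the size of its change there depends on the floor and is not given. Leaving out 1 array gave 4 to 7 genes at day 7, 2 to 3 at day 2 and 2 to 4 between the days. Psmb9 lost its call in 7 of 24 alternatives, among them the deposited value table (adjusted p = 0.077) and no filter on dim probes (adjusted p = 0.0692). Changes of sign at day 2 were those of H2-K1 (-0.44), H2-T23 (-0.10) and Tap1 (-0.021) without normalization and of H2-K1 with single arrays left out (range -0.074 to 0.20). At day 7 they were those of B2m with the mean of its kept probes (0.12), with single arrays left out (range -0.11 to 0.076) and without all replicate 3 arrays (0.042), the last an alternative chosen after seeing the data. The cause was not tested.

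With replicate number as a block, 7, 2 and 3 genes were called in the comparisons of day 7 and day 2 with proliferation and of day 7 with day 2, and H2-T23 between the days was the 1 call that the pairing changed. Without normalization the share of called genes that were higher was 21.5%, 15.7% and 66.7%, in place of 52.1%, 52.6% and 40%, and the median gene moved by -0.31, -0.41 and 0.09. Over all genes the count between day 2 and day 7 was 432, but 228 with an offset of 50, 252 with background subtracted, 250 without early replicate 2, 695 with every kept probe fitted and 768 with no fold minimum. The last pair gave 6247 and 5939 at day 7 in place of 3729, and 5964 and 5746 at day 2 in place of 3525. Nlrc5, Psmb8 and the other dim probes lie near background, where the offset and the subtraction give the widest range of changes.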
